A study of Mus musculus with 21 samples.

Results

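The 31 genes described here code for hydrolases of the lysosome, proteins of its membrane, and the activators, lipid carriers and protease inhibitors that work with them. They were taken by symbol from a list that was chosen with earlier results of these data known. The symbols were matched to the Ensembl mouse gene identifiers of the deposited tables, where all 31 were found among the 55401 genes counted. RNA came from the forebrains of 21 mice in 6 groups, each mouse being 1 sample. The parental groups E2H, E3H and E4H (n = 3 mice each) carried human APOE2, APOE3 or APOE4 on both chromosomes in place of the mouse gene and were killed at 9 to 10 months of age. PS/E2H, PS/E3H and PS/E4H, with n = 4 mice each, carried the same APOE alleles and were heterozygous for the P301S human tau transgene of line PS19, which is driven by the mouse prion promoter. These tau mice were killed when their hindlimbs were paralyzed, and came from PS19 mice of a B6/C3H background by a cross and a back-cross to the APOE lines, which were kept on C57BL6. In the comparisons of a tau group with its parental group, called tau comparisons below, the transgene, the paralysis, the age at death and the background therefore cannot be told apart. Per the methods the mice were male apart from some females in E4H, PS/E2H and PS/E4H, and which mice these were is not in the labels. The paper also reports that PS/E3H mice became paralyzed at an older age than PS/E2H or PS/E4H mice. In comparisons between APOE lines, sex therefore cannot be told apart from genotype where these groups enter. Among the tau mice the same holds for age at death. Sex was also unbalanced between tau and parental mice in the APOE2 and APOE4 lines. It therefore cannot be told apart from the tau genotype in these tau comparisons, or in contrasts built from them.

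Lysosomes are acid compartments in which proteins, glycans and lipids are taken apart by a large set of soluble enzymes, most of which reach them on mannose 6-phosphate receptors. Each glycosidase or sulfatase removes its own kind of sugar or sulfate, so that loss of a single enzyme leads to storage of its substrate, often with disease of the brain. In the brain, neurons and glia all hold lysosomes, but phagocytic microglia are especially rich in them, and mutations in GRN, the human progranulin gene, cause both frontotemporal dementia and a lysosomal storage disease of neurons.

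All members were counted well above 0: the lowest count of any member in any mouse was 441 (Sgsh) and the highest 145485 (Psap), in libraries of 59265459 to 75932183 counts. Whether counting error was small against the spread between mice was not tested, and for the members with the fewest counts it need not be. The neuronal, astrocyte and oligodendrocyte markers of forebrain tissue all had more than 3 counts in every mouse. Summed over 12 markers, none of them a member, the level of microglial genes was 386 to 514 CPM (counts scaled to a common library size, normalised by TMM over all 21 mice) in the parental mice and 586 to 1047 CPM in the tau mice, so the ranges did not overlap. Replicate 2 of E2H had the 514 CPM, against 406 and 409 CPM in the other E2H mice, and was high in several members. Replicate 1 of PS/E3H was low in most members, with a median log2 level of 0.00 relative to the mean of all mice, against 0.23 to 0.29 in the other PS/E3H mice. Where leaving out 1 of these mice moved a count, the count without it is given beside it.

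Levels of different genes were compared per transcript length, as FPKM (fragments scaled for transcript length and for the number of mapped fragments). Cst3, which codes for cystatin C, a secreted inhibitor of cysteine proteases, was the highest member at 681 FPKM over the 21 mice, followed by Psap at 627 FPKM, the precursor of the saposins that present sphingolipids to their hydrolases. Lamp1, a heavily glycosylated protein of the limiting membrane, came next at 149 FPKM, then Gaa (acid alpha-glucosidase, which degrades glycogen) at 72.3 FPKM and Lgmn (legumain, an asparaginyl endopeptidase) at 60.5 FPKM. The lowest members were Manba at 1.97 FPKM, Galc at 1.93 FPKM and Sgsh at 1.84 FPKM, and the means of these 3 lay within 1 SD of each other. The order in the middle of the range changed with tau: Cd68 was at 8.15 ± 1.10 FPKM (SD, n = 9) in the parental mice, below Lamp2 at 8.54 ± 0.391 FPKM, and at 28.3 ± 8.97 FPKM (SD, n = 12) in the tau mice, well above Lamp2 at 12.6 ± 2.21 FPKM. Those SDs are over mice of 3 APOE lines.

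**Figure D1:**
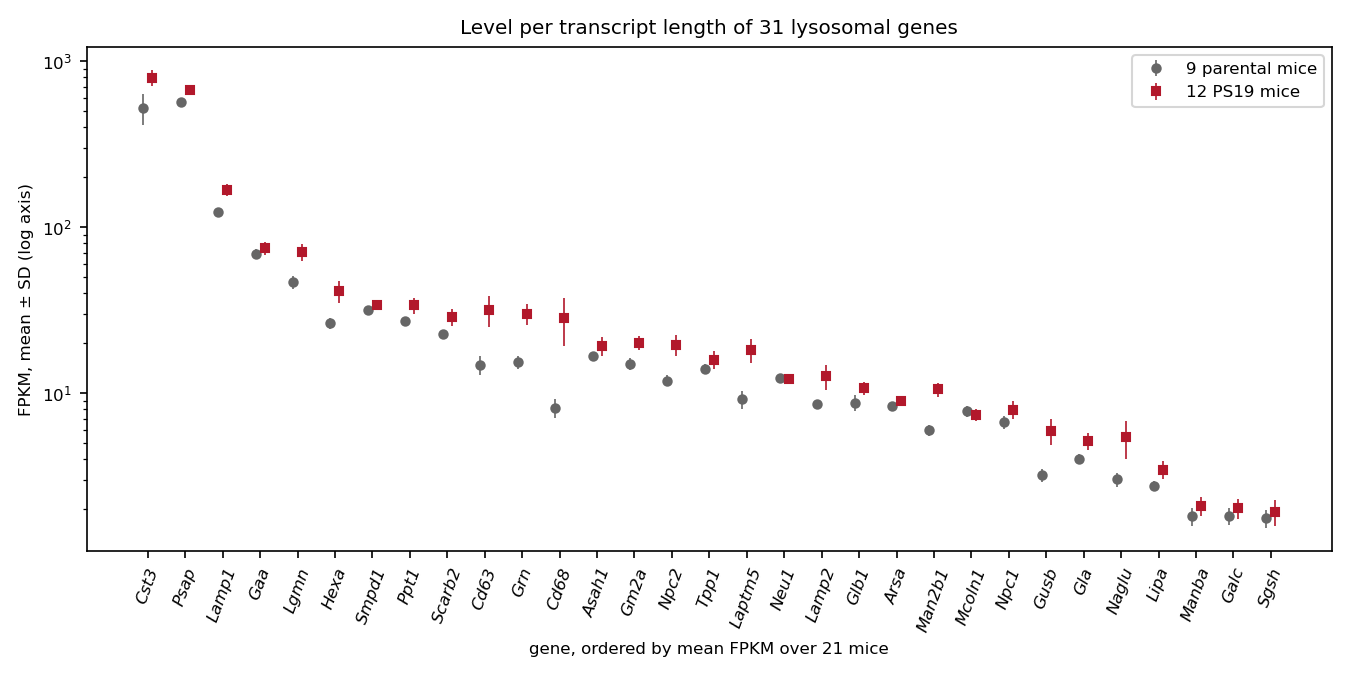
Level of each of the 31 genes as FPKM on a log axis, with genes ordered by their mean over 21 mice; circles are the mean ± SD of the 9 parental mice and squares that of the 12 tau mice. Cst3 and Psap stand above 500 FPKM, the lowest members near 2 FPKM, and the pair of symbols is farthest apart for Cd68.

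Many lysosomal promoters hold the E-box CACGTG, the letters that the transcription factors TFEB and TFE3 bind as part of a longer element. RefSeq promoter windows on build GRCm38.p6, each reaching from before to just after an annotated start, were found for 29 of the 31 members, and none was given for Npc1 and Asah1. The E-box was in 9 of the 31 windows of these 29 genes (29%), against 7.15% of all 32851 windows. The longer palindrome TCACGTGA, which contains the E-box, was in the windows of Gla and Mcoln1 (6.45%, against 0.974% of all windows), and GAGGAAGT, a form of the site bound by the myeloid factor PU.1, was in those of Gla and Gusb (6.45%, against 3.2%). Both strands were searched, and a match describes letters in the window, not a bound site. Lamp1 held 4 E-boxes, Gla and Mcoln1 held 2 each, and the other members with an E-box held 1. Lamp1 and Gla are shown as examples with more than 1, and Gaa and Glb1 as examples with 1. The capitals mark CACGTG, each stretch reads 5′ to 3′ on the strand of the gene, and all end before the annotated gene begins.
Lamp1, plus strand, chr8:13159080-13159160: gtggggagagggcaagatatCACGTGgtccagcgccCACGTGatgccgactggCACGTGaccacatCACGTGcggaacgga
Gla, minus strand, chrX:134601174-134601252: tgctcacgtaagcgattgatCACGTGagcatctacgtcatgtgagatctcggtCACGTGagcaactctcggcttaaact
Gaa, plus strand, chr11:119267803-119267848: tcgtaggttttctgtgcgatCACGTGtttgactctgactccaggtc
Glb1, plus strand, chr9:114401010-114401055: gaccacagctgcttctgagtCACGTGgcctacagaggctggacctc

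To ask how the tau genotype with its paralysis related to these genes within each APOE genotype, each PS group was compared with its parental line. Of the 31 members, 29 had a log2 fold change above 0 in each of the 3 lines, and none was lower past the threshold. Those below 0 were Sgsh and Asah1 in the APOE2 line and Mcoln1 and Neu1 in the APOE3 and APOE4 lines. Of all genes tested, 47.3%, 49.4% and 49.7% had a log2 fold change above 0 in the APOE2, APOE3 and APOE4 lines. In PS/E2H against E2H mice, 4 of the 31 members were upregulated at an adjusted p under 0.05 (Cd68, Man2b1, Lgmn and Grn), where 0.669% of the 20617 genes tested passed in that direction. In PS/E3H against E3H mice 16 members were upregulated, against 3.35% of all genes, and in PS/E4H against E4H mice 23, against 8.62%. With a fold change of at least 2 in addition, the count was 2 in the APOE2 line (Cd68 and Grn, background 0.451%), 2 in the APOE3 line (Cd63 and Cd68, background 1.2%) and 5 in the APOE4 line (Cd63, Cd68, Laptm5, Gusb and Grn, background 2.4%). The median log2 fold change of the members was 0.27, 0.42 and 0.47 in the same order, where the median of all genes tested was -0.02, -0.00 and -0.00. Cd68, Man2b1, Lgmn and Grn passed in all 3 lines, 12 members in 2 lines, 7 in PS/E4H mice alone, and 8 in none (Mcoln1, Gaa, Neu1, Manba, Galc, Sgsh, Arsa and Smpd1).

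In 1 model of all 21 mice, the mean of the 3 tau effects was above 0 and past the threshold for 25 members, against 11.9% of 22863 genes, with 2 of them reaching a fold change of 2 (Cd63 and Cd68, background 2.42%). The median of the members was 0.35 on the log2 scale. Mcoln1, Neu1, Galc, Sgsh, Arsa and Smpd1 did not pass. The counts of the 2-group comparisons depended on single mice. In the APOE2 line the count was 1 without replicate 1 or 3 of E2H or replicate 1 of PS/E2H, 2 without replicate 2 or 3 of PS/E2H, 6 without replicate 4 of PS/E2H and 7 without replicate 2 of E2H. It was 11 when the spread was taken from all 21 mice. In the APOE3 line it was 21 without replicate 1 of PS/E3H, but 6, 9 and 6 without replicates 1, 2 and 3 of E3H. It stayed between 17 and 23 in the APOE4 line and between 23 and 26 for the mean effect. The shares of all genes that passed in these fits are not given here, so a moved count need not be particular to the members.

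**Figure D2:**
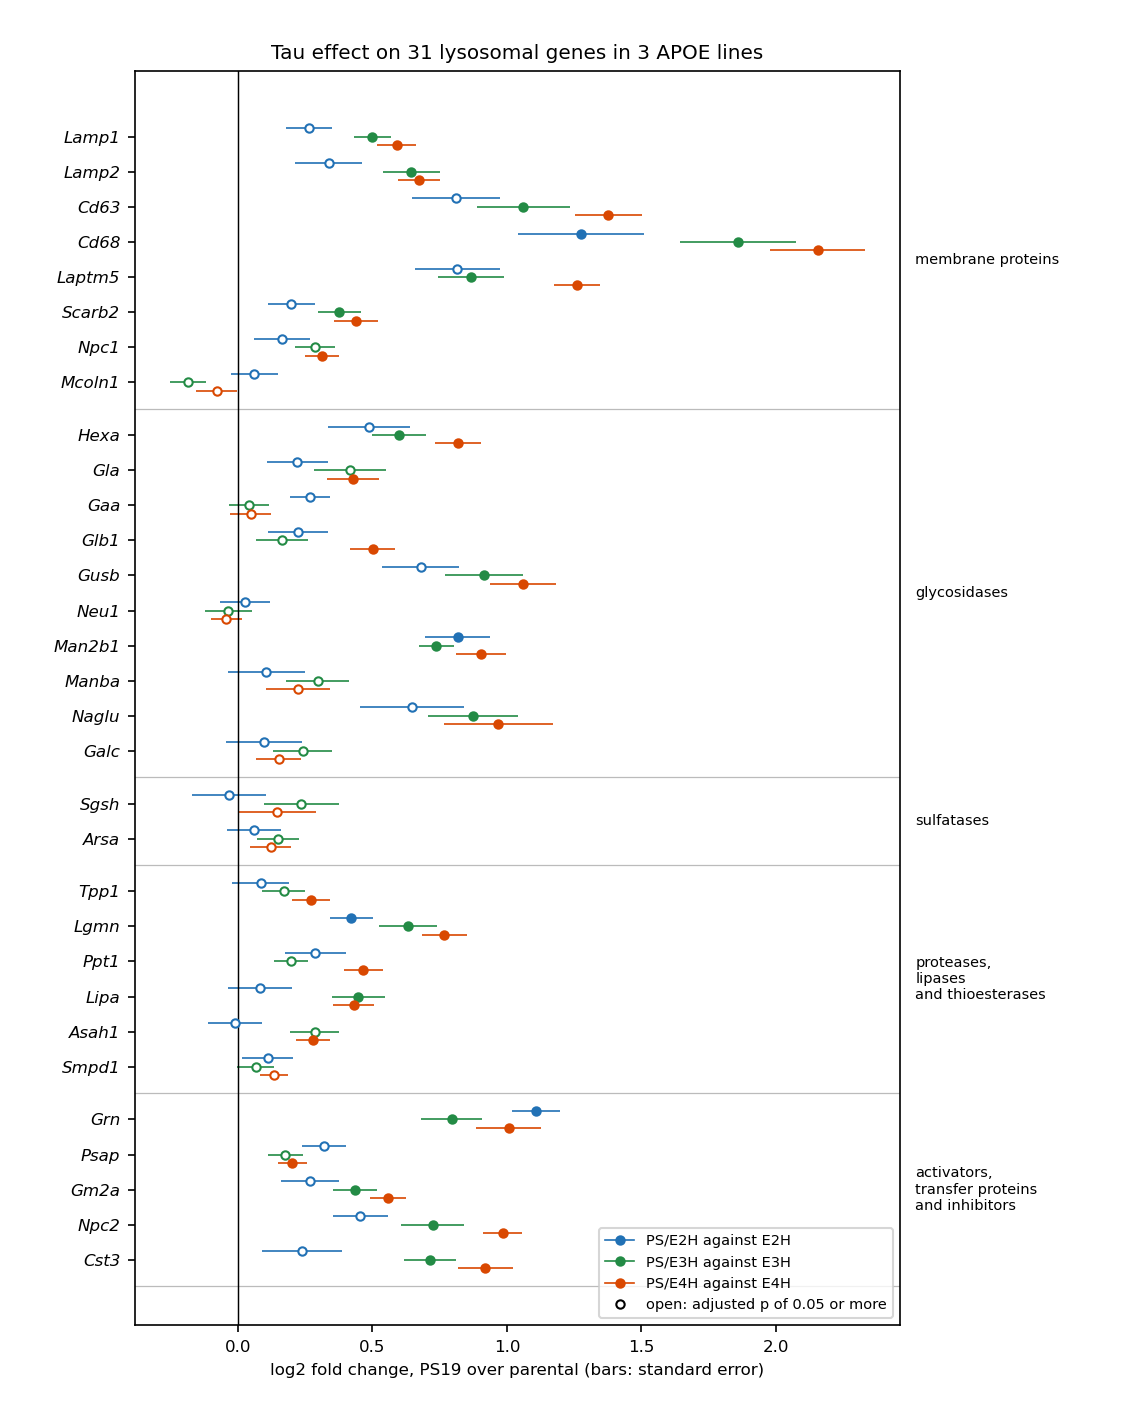
Tau effect on each of the 31 genes, grouped by role: the points are log2 fold changes of PS/E2H over E2H (blue), PS/E3H over E3H (green) and PS/E4H over E4H (red), the bars are standard errors, and filled points have an adjusted p under 0.05. Cd68 lies farthest to the right in all 3 lines, and the points of Mcoln1, Neu1, Sgsh and Asah1 lie on both sides of 0.

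Of the 8 membrane proteins, 1 was upregulated in PS/E2H, 6 in PS/E3H and 7 in PS/E4H mice. Of all genes tested, 0.669%, 3.35% and 8.62% were upregulated in the same comparisons, so the calls grew over all genes too. Cd68 (chromosome 11, 69664213 to 69666153, minus strand), a LAMP-related glycoprotein of macrophage and microglial lysosomes, showed the largest fold change of all members in each line. It was at 10.04, 16.2 and 10.7 CPM in the E2H mice, 10.9, 11.1 and 10.1 CPM in the E3H mice, and 10.8, 9.64 and 10.8 CPM in the E4H mice. In the tau mice it reached 28.2, 30.1, 40.5 and 20.7 CPM in PS/E2H, 23.1, 42.5, 40.9 and 49.9 CPM in PS/E3H, and 60.8, 48.2, 33.5 and 43.7 CPM in PS/E4H. Every tau mouse thus stood above every parental mouse, replicate 2 of E2H being the highest of the parental mice. The log2 fold change was 1.27 (standard error 0.23, adjusted p = 0.0459) in the APOE2 line, 1.86 (0.21, adjusted p = 0.00251) in the APOE3 line and 2.15 (0.18, adjusted p = 0.000108) in the APOE4 line. Without 1 mouse at a time, Cd68 missed the threshold in the APOE2 line 5 times out of 7 and in the APOE4 line 0 times.

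Cd63 (chromosome 10, 128900989 to 128912822, plus strand), a tetraspanin of late endosomes, lysosomes and exosomes, was at 53.3, 80.9 and 57.1 CPM in E2H, 57.6, 64.4 and 53.2 CPM in E3H and 53.3, 50.6 and 61.0 CPM in E4H mice. It was at 106, 124 and 128 CPM in replicates 1 to 3 of PS/E2H and 89.9 CPM in replicate 4, at 81.8, 138, 123 and 149 CPM in PS/E3H, and at 167, 151, 113 and 142 CPM in PS/E4H. The lowest tau mouse, replicate 1 of PS/E3H, was close to the highest parental mouse, replicate 2 of E2H. Cd63 rose 2.09-fold in PS/E3H (adjusted p = 0.0109) and 2.60-fold in PS/E4H mice (adjusted p = 0.000169), and the 1.75-fold difference in PS/E2H mice did not pass (adjusted p = 0.0622). About 11% of the short windows of its transcripts also occur in the pseudogene Cd63-ps, so that part of its reads could have been counted there.

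Laptm5 (chromosome 4, 130913125 to 130936141, plus strand), a lysosomal membrane protein of blood-derived and microglial cells, was at 31.1, 47.0 and 35.5 CPM in E2H, 41.9, 37.8 and 40.8 CPM in E3H and 32.3, 34.3 and 37.5 CPM in E4H mice. The tau mice had 63.6, 68.5, 80.04 and 55.2 CPM in PS/E2H, 56.7, 76.9, 76.2 and 85.7 CPM in PS/E3H and 94.7, 80.7, 77.8 and 80.9 CPM in PS/E4H. Each tau mouse exceeded each parental mouse, and the PS/E4H mice other than replicate 1 were close together. The log2 fold change was 0.82 (standard error 0.16, adjusted p = 0.0548) in the APOE2 line, 0.87 (0.12, adjusted p = 0.00563) in the APOE3 line and 1.26 (0.08, adjusted p = 4.37e-05) in the APOE4 line.

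Lamp1 and Lamp2, the most abundant proteins of the lysosomal membrane, changed less. Lamp1 (chromosome 8, 13159161 to 13175338, plus strand), whose promoter holds 4 E-boxes, was at 366, 434 and 369 CPM in E2H, 331, 344 and 334 CPM in E3H and 340.2, 324 and 364 CPM in E4H mice. Its level was 471, 482, 483 and 444 CPM in PS/E2H, 432, 484, 485 and 516 CPM in PS/E3H and 553, 528, 469 and 523 CPM in PS/E4H mice. The groups did not overlap within a line, although replicate 2 of E2H (434 CPM) stood above replicate 1 of PS/E3H (432 CPM). Lamp1 rose 1.41-fold in PS/E3H (adjusted p = 0.00516) and 1.51-fold in PS/E4H (adjusted p = 0.000886), and was 1.20-fold higher in PS/E2H mice without passing (adjusted p = 0.255).

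Lamp2 (X chromosome, 38401357 to 38456454, minus strand), which also serves in chaperone-mediated autophagy, was at 86.0 to 91.4 CPM in E2H, 82.6 to 90.9 CPM in E3H and 87.5 to 89.6 CPM in E4H mice. In the tau mice it was at 116, 97.3, 140.2 and 99.6 CPM in PS/E2H, 108, 145, 145 and 150.2 CPM in PS/E3H and 149.8, 149, 122 and 145 CPM in PS/E4H. The parental mice were close together and the tau mice spread widely, all of them above the parental range. The log2 fold changes were 0.34 (standard error 0.12, adjusted p = 0.343), 0.65 (0.11, adjusted p = 0.0115) and 0.67 (0.08, adjusted p = 0.000679) in the APOE2, APOE3 and APOE4 lines. Scarb2, the receptor LIMP-2 that carries beta-glucocerebrosidase to lysosomes, rose 1.30-fold in PS/E3H (adjusted p = 0.0273) and 1.36-fold in PS/E4H (adjusted p = 0.00683). Npc1, the membrane protein that hands cholesterol out of the lysosome, rose 1.24-fold in PS/E4H (adjusted p = 0.0110), and its log2 fold change was 0.29 in PS/E3H (adjusted p = 0.0545). Mcoln1, the calcium channel TRPML1, had log2 fold changes of 0.06, -0.19 and -0.08 across the 3 lines, with adjusted p of 0.876, 0.142 and 0.545.

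**Figure D3:**
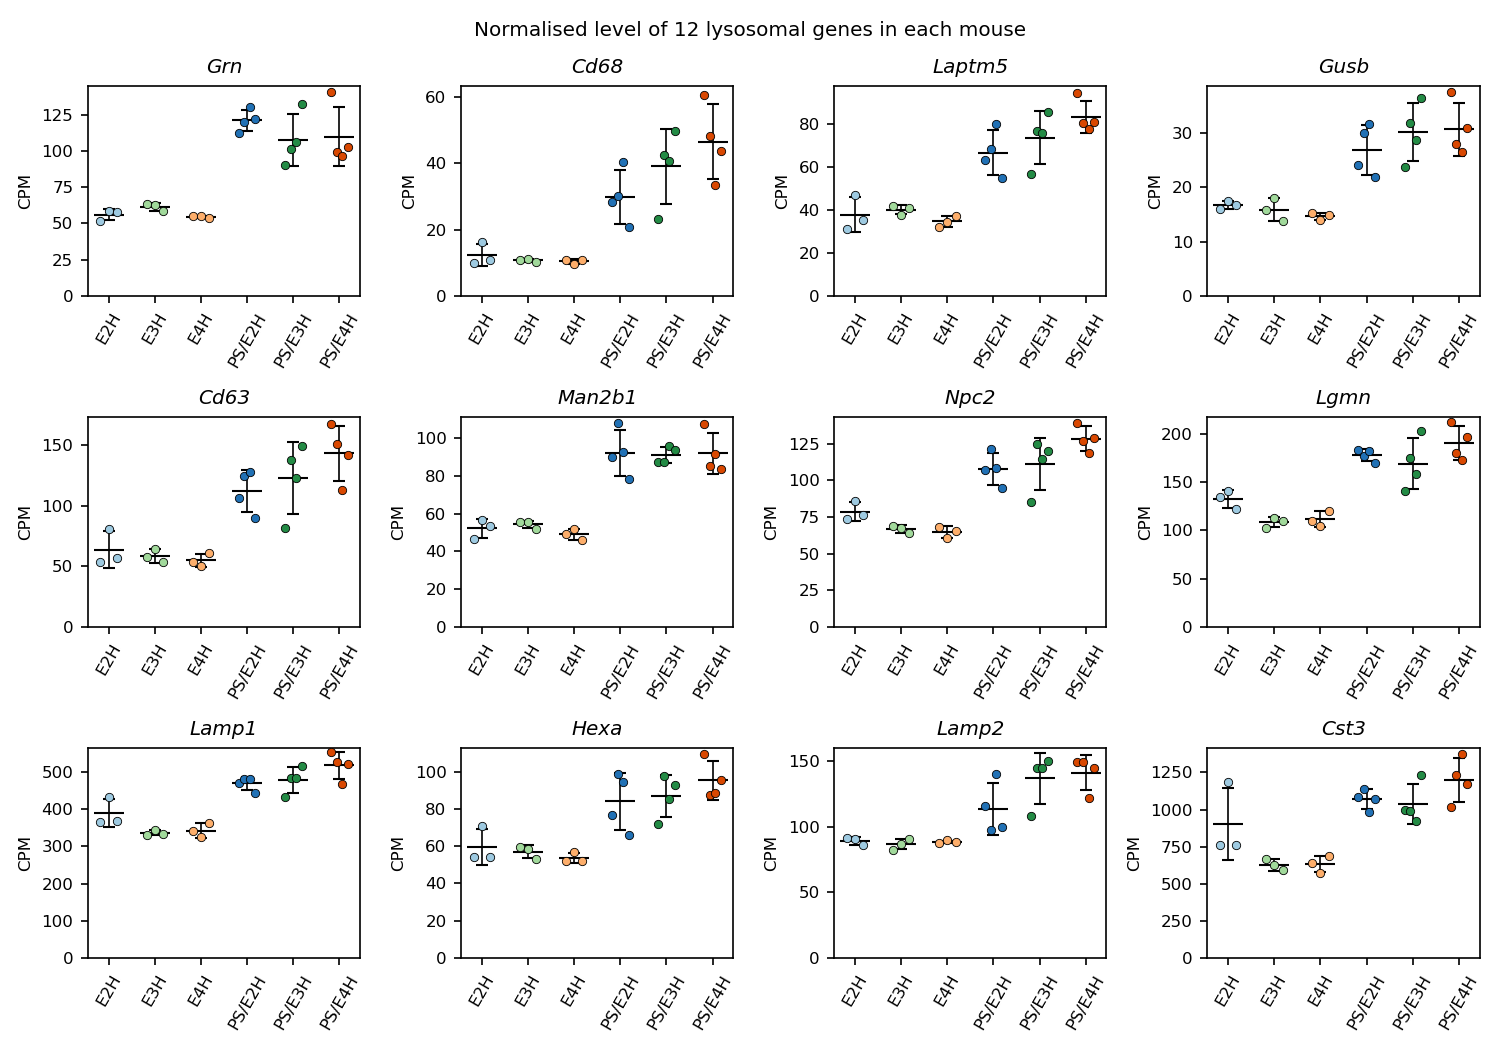
Normalised level (CPM, axes from 0) of 12 genes in each of the 21 mice by group, 1 point per mouse, with the group mean and SD as black bars. For Grn, Cd68, Laptm5, Gusb, Cd63, Man2b1 and Lamp2 the points of the 3 PS groups lie above all points of the 3 parental groups, whereas for Cst3 replicate 2 of E2H, at 1185 CPM, lies among the tau mice.

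Of the 10 glycosidases, 1 was upregulated in PS/E2H, 4 in PS/E3H and 6 in PS/E4H mice (all genes 0.669%, 3.35% and 8.62%). Man2b1 (chromosome 8, 85083270 to 85098282, plus strand), the acid alpha-mannosidase, was at 46.6, 56.6 and 53.2 CPM in E2H, 55.2, 55.6 and 51.8 CPM in E3H and 49.4, 51.6 and 45.8 CPM in E4H mice. It was at 90.1, 108, 92.4 and 78.0 CPM in PS/E2H, 87.4, 87.4, 95.7 and 93.9 CPM in PS/E3H and 107, 85.1, 91.6 and 83.5 CPM in PS/E4H mice. No tau mouse came near the parental range, and the 3 tau groups had nearly equal means of 92.1, 91.1 and 91.9 CPM. The log2 fold changes were accordingly alike at 0.82 (standard error 0.12, adjusted p = 0.0180), 0.74 (0.07, adjusted p = 0.00101) and 0.90 (0.09, adjusted p = 0.000351). The difference between the effects in the APOE4 and APOE2 lines was 0.09 (95% interval -0.20 to 0.38).

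Gusb (chromosome 5, 129989011 to 130003049, minus strand), beta-glucuronidase, was at 16.03, 17.4 and 16.8 CPM in E2H, 15.9, 17.995 and 13.9 CPM in E3H and 15.2, 13.975 and 14.8 CPM in E4H mice. In the tau groups it was at 24.1, 30.1, 31.7 and 22.0 CPM (PS/E2H), 23.7, 31.9, 28.8 and 36.6 CPM (PS/E3H) and 37.5, 28.0, 26.6 and 30.9 CPM (PS/E4H). All 12 tau mice exceeded all 9 parental mice. Gusb rose 1.89-fold in PS/E3H (adjusted p = 0.00978) and 2.09-fold in PS/E4H (adjusted p = 0.000641), and was 1.60-fold higher in PS/E2H without passing (adjusted p = 0.0704).

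Hexa, the alpha subunit of the beta-hexosaminidase that degrades GM2 ganglioside, was at 54.4, 71.0 and 54.0 CPM in E2H, 59.5, 58.5 and 53.3 CPM in E3H and 52.2, 57.0 and 52.2 CPM in E4H mice. It was at 76.9, 98.9, 94.6 and 66.0 CPM in PS/E2H, 72.1, 97.9, 85.5 and 92.8 CPM in PS/E3H and 109.8, 87.4, 88.7 and 95.6 CPM in PS/E4H mice. The groups overlapped in the APOE2 line, where replicate 2 of E2H was above replicate 4 of PS/E2H, and in no other line. Its log2 fold change was 0.49 (standard error 0.15, adjusted p = 0.247) in the APOE2 line, 0.60 (0.10, adjusted p = 0.0121) in the APOE3 line and 0.82 (0.09, adjusted p = 0.000383) in the APOE4 line. The calls of Hexa, Lamp2 and Lgmn in the APOE3 line were each lost when any 1 of the 3 E3H mice was left out.

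Naglu, which removes N-acetylglucosamine from heparan sulfate, had 7.43 to 10.3 CPM in the parental mice and 9.12 to 23.3 CPM in the tau mice, and rose 1.83-fold in PS/E3H (adjusted p = 0.0189) and 1.96-fold in PS/E4H (adjusted p = 0.0116). Gla, the alpha-galactosidase A that is deficient in Fabry disease, rose 1.35-fold in PS/E4H mice (adjusted p = 0.0160), and Glb1, the beta-galactosidase of GM1 ganglioside, 1.42-fold (adjusted p = 0.00424). Glb1 shares 4.26% of its transcript windows with Tmppe, which overlaps it on the same strand. Gaa was at 428 to 451 CPM in PS/E2H mice, above the 347 to 384 CPM of E2H mice (log2 fold change 0.27, adjusted p = 0.184). Its log2 fold change was 0.04 in PS/E3H and 0.05 in PS/E4H mice. Neu1, the lysosomal sialidase, had log2 fold changes between -0.04 and 0.03. Manba, the beta-mannosidase, and Galc, the galactosylceramidase of myelin lipid breakdown, had log2 fold changes of 0.11 to 0.30 and 0.10 to 0.24, none of which passed.

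Neither sulfatase passed in any line, and neither had an unadjusted p under 0.05 there. Sgsh, the heparan N-sulfatase, was at 7.27 to 9.97 CPM in the parental and 7.44 to 11.8 CPM in the tau mice, and its log2 fold change was -0.03, 0.24 and 0.15 in the APOE2, APOE3 and APOE4 lines. Arsa, the arylsulfatase A that degrades sulfatide of myelin, was at 30.7 to 39.1 CPM in the parental and 32.4 to 40.0 CPM in the tau mice, with log2 fold changes of 0.06, 0.15 and 0.12. In the mean over the 3 lines the adjusted p was 0.299 for Sgsh and 0.0733 for Arsa.

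Among the proteases, lipases and thioesterases, 1 of 6 was upregulated in PS/E2H, 2 in PS/E3H and 5 in PS/E4H mice (all genes 0.669%, 3.35% and 8.62%). Lgmn (chromosome 12, 102394084 to 102439813, minus strand) was at 134, 141 and 122 CPM in E2H, 103, 113 and 109 CPM in E3H and 109.9, 104 and 120.5 CPM in E4H mice. It was at 183, 177, 183 and 169 CPM in PS/E2H, 141, 175, 159 and 203 CPM in PS/E3H and 212, 179.7, 173 and 197 CPM in PS/E4H mice. Replicate 1 of PS/E3H was level with the highest E2H mouse, and within each line the groups did not overlap. The log2 fold changes were 0.42 (standard error 0.08, adjusted p = 0.0482), 0.63 (0.11, adjusted p = 0.0130) and 0.77 (0.08, adjusted p = 0.000501). The call in the APOE2 line was lost in 6 of the 7 fits without 1 mouse, all but the fit without replicate 2 of E2H.

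Lipa, which hydrolyses cholesteryl esters and triglycerides, rose 1.36-fold in PS/E3H (adjusted p = 0.0293) and 1.35-fold in PS/E4H (adjusted p = 0.00580), and its fold change in PS/E2H was 1.06 (adjusted p = 0.881). Ppt1, the thioesterase that strips palmitate from proteins, rose 1.38-fold in PS/E4H mice (adjusted p = 0.00299), and all 12 tau mice (117 to 161 CPM) stood above all 9 parental mice (at most 115 CPM). Tpp1, a tripeptidyl peptidase, rose 1.21-fold (adjusted p = 0.0264) and Asah1, the acid ceramidase, 1.21-fold (adjusted p = 0.0160) in PS/E4H mice. Loss of Ppt1 or of Tpp1 causes neuronal ceroid lipofuscinosis in humans. Smpd1, the acid sphingomyelinase, was 1.10-fold higher in PS/E4H mice without passing (adjusted p = 0.107).

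All 5 activators, transfer proteins and inhibitors were upregulated in PS/E4H mice, 4 in PS/E3H and 1 in PS/E2H mice (all genes 8.62%, 3.35% and 0.669%). Grn (chromosome 11, 102430315 to 102437048, plus strand), the precursor of the granulins, had 51.5, 58.8 and 57.8 CPM in E2H, 63.5, 62.8 and 58.4 CPM in E3H and 54.8, 54.9 and 53.8 CPM in E4H mice. The tau mice had 112, 120.2, 130.3 and 122 CPM in PS/E2H, 90.1, 102, 106 and 133 CPM in PS/E3H and 141, 99.7, 96.7 and 103 CPM in PS/E4H. The lowest tau mouse, at 90.1 CPM, was thus well above the highest parental mouse, at 63.5 CPM. Grn was the 1 member whose log2 fold change was largest in the APOE2 line among those that passed in all 3 lines, at 1.11 (standard error 0.09, adjusted p = 0.000984), against 0.79 (0.11, adjusted p = 0.00641) in the APOE3 line and 1.01 (0.12, adjusted p = 0.000818) in the APOE4 line. The difference between the APOE4 and APOE2 effects was -0.10 (95% interval -0.45 to 0.25, adjusted p = 0.875). Its calls were kept in all 7 fits without 1 mouse in each line.

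Npc2 (chromosome 12, 84754562 to 84773152, minus strand), the soluble carrier that passes cholesterol to Npc1, was at 73.3, 85.7 and 76.1 CPM in E2H, 69.0, 67.4 and 63.7 CPM in E3H and 68.1, 60.3 and 65.4 CPM in E4H mice. It was at 107, 122, 108 and 94.6 CPM in PS/E2H, 85.0, 125, 115 and 120.0 CPM in PS/E3H and 139, 127, 118 and 129 CPM in PS/E4H mice. The lowest PS/E4H mouse was above all but 3 of the other 8 tau mice. Npc2 rose 1.65-fold in PS/E3H (adjusted p = 0.0108) and 1.98-fold in PS/E4H (adjusted p = 5.33e-05), and was 1.37-fold higher in PS/E2H without passing (adjusted p = 0.0913).

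Cst3 (chromosome 2, 148871722 to 148875692, minus strand) was at 764, 1185 and 763 CPM in E2H, 665, 624 and 589 CPM in E3H and 642, 571 and 683 CPM in E4H mice. It was at 1088, 1140 and 981 CPM in replicates 1 to 3 of PS/E2H and 1072 CPM in replicate 4, at 997, 989.9, 923 and 1232 CPM in PS/E3H, and at 1019.9, 1230 and 1375 CPM in replicates 1 to 3 of PS/E4H and 1175 CPM in replicate 4. In the APOE2 line replicate 2 of E2H was above every PS/E2H mouse, and the log2 fold change was 0.24 (standard error 0.15, adjusted p = 0.639). Without that mouse it was 0.48 (adjusted p = 0.0498). It was 0.71 (0.10, adjusted p = 0.00468) in the APOE3 line and 0.92 (0.10, adjusted p = 0.000534) in the APOE4 line. Gm2a, the activator that lifts GM2 ganglioside out of the membrane for hexosaminidase, rose 1.35-fold in PS/E3H (adjusted p = 0.0173) and 1.47-fold in PS/E4H (adjusted p = 0.000918). Psap was at 1640 to 1758 CPM in the parental and 1842 to 2309 CPM in the tau mice, with a fold change of 1.15 in PS/E4H (adjusted p = 0.0301). The difference of its means was larger in the APOE2 line, where it did not pass. Means there were 2138 CPM in PS/E2H against 1707 CPM in E2H mice. In the APOE4 line they were 1954 CPM in PS/E4H against 1692 CPM in E4H mice.

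Counted by overlap instead of by the test, every tau mouse was above every parental mouse of the same line for 15 members in the APOE2, 22 in the APOE3 and 24 in the APOE4 line, where 6.17%, 10% and 13.9% of the 22863 genes did so. All 12 tau mice were above all 9 parental mice for 9 members, Lamp2, Cd63, Cd68, Laptm5, Gusb, Man2b1, Ppt1, Grn and Psap, against 1.38% of the genes. Without replicate 2 of E2H these counts were 21 in the APOE2 line (11.1% of the genes) and 15 over all mice (2.04%). Without replicate 4 of PS/E2H they were 19 (8.68%) and 11 (1.71%), and without replicate 1 of PS/E3H there were 27 in the APOE3 line (15.6%) and 12 over all mice (1.86%).

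Markers of glia moved with the members. Of all genes tested, 0.669%, 3.35% and 8.62% were upregulated in the APOE2, APOE3 and APOE4 lines, and 11.9% in the mean over the lines. Of the 12 microglial markers, 3, 7 and 10 were upregulated in the same lines and 9 in the mean. The log2 fold change in that mean was 1.85 for C1qa, 1.59 for C1qb, 0.81 for Csf1r and 1.33 for Fcrls. The tau mouse with the lowest microglial sum in the APOE3 line, replicate 1 with 627 CPM, was also the lowest of its group in Cd68, Cd63, Laptm5, Lamp1, Lamp2, Hexa, Gusb, Npc2, Lgmn and Grn. It was level with replicate 2 as the lowest in Man2b1 (87.4 CPM in both), and was not the lowest in Cst3. In PS/E2H the lowest was replicate 4 with 586 CPM, which was lowest in Cd68, Cd63, Laptm5, Lamp1, Hexa, Gusb, Man2b1, Npc2 and Lgmn, but not in Grn, Lamp2 or Cst3. In PS/E4H it was replicate 2 with 837 CPM, which was lowest in Hexa alone of the 12 members given by mouse, whereas replicate 3, with a higher microglial sum, was lowest in 9 of them (Cd68, Cd63, Laptm5, Lamp1, Lamp2, Gusb, Npc2, Lgmn and Grn). Astrocyte markers (7 of 7 upregulated in the mean over the lines, Gfap by 2.69 on the log2 scale) went from 2747 to 3295 CPM in the parental mice to 4233 to 6264 CPM in the tau mice. Markers of border macrophages summed to 4.34 to 9.59 CPM and 11.8 to 21.4 CPM, with 3 of 4 upregulated. Those of monocytes and neutrophils summed to 2.37 to 10.5 CPM and 4.90 to 36.3 CPM, with 4 of 6 upregulated and Ly6c2, S100a8 and Chil3 at 3 counts or fewer in some mouse. The sum of 8 neuronal markers was 6881 to 7465 CPM in the parental and 6005 to 7321 CPM in the tau mice (4 lower and 1 higher past the threshold). Of 6 oligodendrocyte markers 0, 6 and 5 were upregulated in the APOE2, APOE3 and APOE4 lines. The part of these shifts in the change of the lysosomal genes was not tested, and in bulk tissue more cells of a type and more RNA per cell cannot be told apart.

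**Figure D4:**
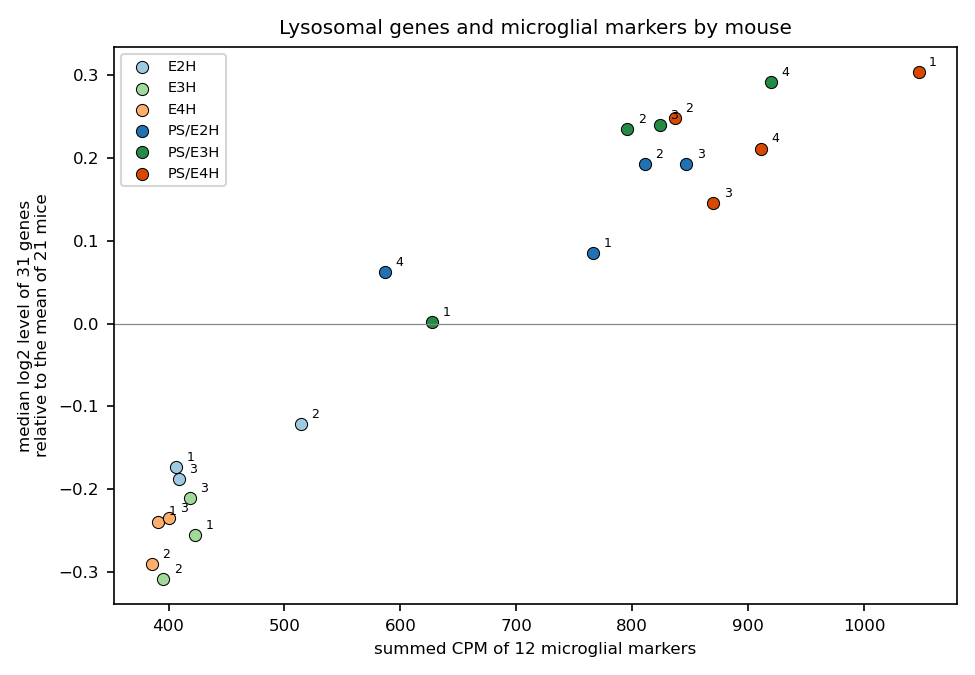
Each point is a mouse, numbered by replicate and coloured by group: the horizontal axis is the summed CPM of 12 microglial markers and the vertical axis the median, over the 31 genes, of the log2 level relative to the mean of 21 mice. The 9 parental mice lie at 514 CPM or less and below 0, the 12 tau mice at 586 CPM or more and above 0, with replicate 1 of PS/E3H and replicate 4 of PS/E2H nearest to the parental mice.

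To see whether the members differed between APOE lines without the tau transgene, the 3 parental lines were compared with each other. No member passed in E2H against E3H, E4H against E3H or E4H against E2H mice with edgeR's quasi-likelihood test, where 0.178%, 0.162% and 0.216% of the genes passed in either direction. At an unadjusted p under 0.05 there were 4, 4 and 3 of the 31 members, where 14.1%, 6.67% and 12.4% of all genes reached that level. With every mouse included, the members' share in E2H against E3H and E4H against E2H was thus no higher than that of all genes. In E4H against E3H, with 4 of 31 members against 6.67% of all genes, it was higher, and whether it differed was not tested. Without replicate 2 of E2H the 4 in E2H against E3H became 5 (13.025% of all genes). The 3 in E4H against E2H became 4 (11.299%). The members' share was then slightly above that of all genes in both comparisons. Relative to E3H mice, Lgmn (log2 fold change 0.28, adjusted p = 0.232), Cst3 (0.52, adjusted p = 0.246), Npc2 (0.23, adjusted p = 0.299) and Lamp1 (0.21, adjusted p = 0.323) were the 4 in E2H mice, and Cst3, Npc2 and Lgmn were also the 3 in E4H against E2H. With DESeq2, Cst3 passed in E2H against E3H mice (log2 fold change 0.52, adjusted p = 0.0339), and without replicate 2 of E2H DESeq2 called 2 members there, Lgmn and Cst3, the latter at a smaller log2 fold change of 0.28. The 4 in E4H against E3H mice were all lower in E4H: Grn by 0.17, Glb1 by 0.23, Laptm5 by 0.21 and Man2b1 by 0.15 on the log2 scale, with adjusted p of 0.551 to 0.736.

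Among the tau mice, no member passed in PS/E2H against PS/E3H, PS/E4H against PS/E3H or PS/E4H against PS/E2H, where 0.113%, 0.0197% and 0.119% of the genes passed. At an unadjusted p under 0.05 there were 5, 2 and 10 of the 31 members by the same edgeR test, where 11.7%, 6.51% and 12.3% of all genes reached that level. Without replicate 4 of PS/E2H the 10 became 5 (8.39% of all genes) and the 5 became 1 (7.83%), and without replicate 1 of PS/E3H the 5 became 12 (14.7%) and the 2 became 1 (6.18%). In PS/E4H against PS/E2H mice Gaa was lower in PS/E4H (log2 fold change -0.27, adjusted p = 0.275), at 334 to 399 CPM against 428 to 451 CPM, so that the groups did not overlap, and DESeq2 called it (adjusted p = 0.0475). The largest difference was that of Cd68, 0.64 on the log2 scale higher in PS/E4H mice (95% interval 0.19 to 1.09, adjusted p = 0.314), with 33.5 to 60.8 CPM against 20.7 to 40.5 CPM. Mcoln1 was also lower, and Npc2, Laptm5, Lamp2, Cd63, Scarb2, Asah1 and Gm2a higher in PS/E4H mice at the unadjusted level. The 5 members in PS/E2H against PS/E3H were Gaa (log2 fold change 0.21), Mcoln1 (0.17) and Psap (0.16), which were higher, and Sgsh (-0.36) and Npc1 (-0.26), which were lower, with adjusted p of 0.403 to 0.421.

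For 16 members the tau effect was ordered APOE4 over APOE3 over APOE2, as it was for 24.2% of the 19968 genes tested in all 3 lines, and the differences themselves were tested as interactions in the model of 21 mice. No member passed in any of the 3 interactions with edgeR, and neither did any of the 22863 genes (0%, 0% and 0%). In the APOE4 effect minus the APOE2 effect, 26 of 31 members were above 0, against 51.8% of all genes, and 11 had an unadjusted p under 0.05, against 11.4%. The difference was 0.68 for Cst3 (95% interval 0.29 to 1.07, adjusted p = 0.212), 0.53 for Npc2 (0.22 to 0.84, adjusted p = 0.223), 0.33 for Lamp1 (0.11 to 0.54, adjusted p = 0.272) and 0.88 for Cd68 (0.18 to 1.58, adjusted p = 0.323). For Cst3, DESeq2 gave an adjusted p of 0.0346, and limma called 0 members in this interaction. The median difference of the members was 0.24, against 0.01 for all genes. Glial markers had medians above 0 in the same contrast, 0.51 for the 6 oligodendrocyte markers, of which 6 had an unadjusted p under 0.05, 0.49 for the 12 microglial markers (5) and 0.22 for the 7 astrocyte markers (2), and their part in the difference was not tested. Replicate 2 of E2H, the parental mouse with the high microglial sum, enters this contrast. Without it 24 members were above 0 (51.0% of all genes), 5 had an unadjusted p under 0.05 (8.60%), the median was 0.20, and Cst3 was at 0.44 (adjusted p = 0.493 with edgeR, 0.263 with DESeq2). In the APOE2 minus the APOE3 effect 6 members, and in the APOE4 minus the APOE3 effect 2 members (Glb1 and Ppt1), had an unadjusted p under 0.05, against 6.80% and 2.98% of all genes. Without replicate 2 of E2H the 6 became 3 (6.02%), without replicate 4 of PS/E2H 3 (5.39%), and without replicate 1 of PS/E3H 11 (8.64%). The 2 in the APOE4 minus the APOE3 effect became 0 without replicate 1 of PS/E3H (2.8623%). They stayed 2 without replicate 2 of E2H or replicate 4 of PS/E2H. The 11 in the APOE4 minus the APOE2 effect became 7 without replicate 4 of PS/E2H (10.169%) and 14 without replicate 1 of PS/E3H (12.011%). The 3 interactions share groups, so their values are not independent.

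**Figure D5:**
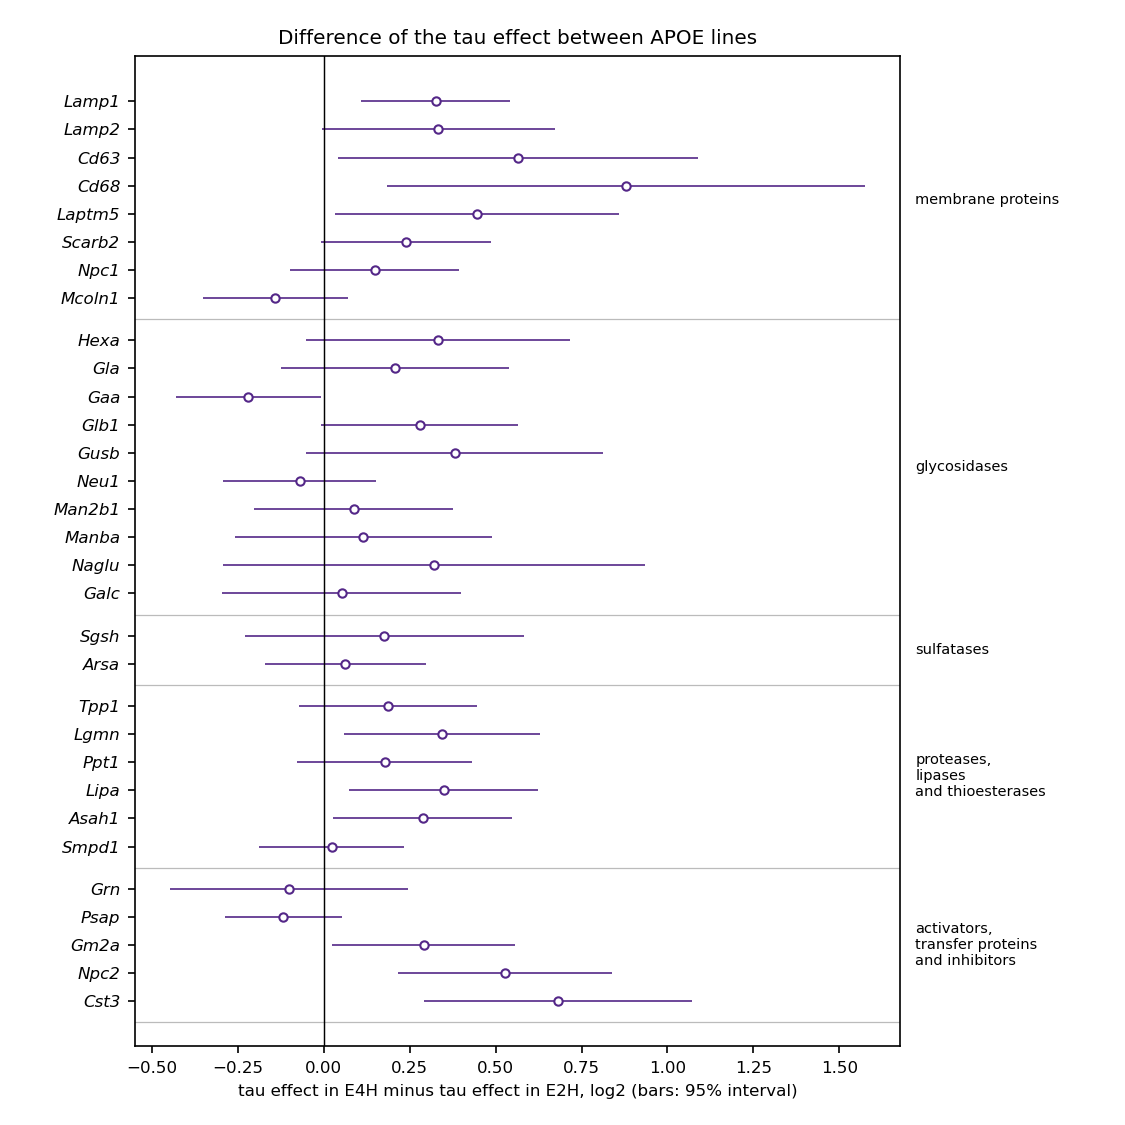
Difference of the tau effect in the APOE4 line minus that in the APOE2 line for each of the 31 genes, on the log2 scale with 95% intervals; all points are open because no adjusted p was under 0.05. The points of 26 genes lie to the right of 0, with Cd68 and Cst3 farthest, and those of Mcoln1, Gaa, Neu1, Grn and Psap to the left.

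The rest of the lysosomal system was looked at through 5 further lists. In the mean over the lines, 2732 of all 22863 genes tested were upregulated (11.9%) and 2261 were lower. Whether the count of any list differed from these shares was not tested, and the counts of the shorter lists are small. Of 20 other lysosomal hydrolases and their cofactors, 15 were upregulated and 1 was lower in the mean over the lines (median log2 fold change 0.32). Ctsa, the protective protein of Neu1 and Glb1, rose by 0.58 (adjusted p = 1.50e-07), and Sumf1, which activates all sulfatases, by 0.32 (adjusted p = 3.59e-06). Of 18 other membrane proteins 5 were upregulated and 1 was lower (median 0.10), among them Laptm4a, a relative of Laptm5, by 0.29 (adjusted p = 7.08e-05). Of 19 subunits and partners of the vacuolar ATPase, the proton pump of the lysosome, 4 were upregulated and 1 was lower (median 0.01). Atp6v0d2 had 0 to 12 counts in each parental mouse and 8 to 414 counts in each tau mouse, so the size of its fitted change depends on very few parental reads. Of 10 sorting genes 2 were upregulated and 1 was lower (median -0.05), with M6pr, a mannose 6-phosphate receptor, up by 0.19 (adjusted p = 0.000885) and Gga3, an adaptor of these receptors, down at -0.19 (adjusted p = 0.00433). Of 17 tested genes of transcriptional and nutrient control 1 passed, Rragd, a Rag GTPase, which was lower (-0.22, adjusted p = 0.00804). Tfe3 and Tfeb, the factors that bind the E-box of lysosomal promoters, had mean log2 fold changes of 0.11 (adjusted p = 0.0620) and 0.23 (adjusted p = 0.0847), and Tfeb passed in the APOE4 line alone (0.52, adjusted p = 0.0398). Returning to the promoters shown above, 6 of the 9 members with an E-box passed in the mean over the lines (median 0.30), as did 17 of the 20 with a window and no E-box (median 0.49).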

How the data were processed

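Poly(A) RNA of 21 forebrains was sequenced as stranded paired reads. Per the methods and the submitters' processing notes, the authors trimmed reads with cutadapt, aligned them with HISAT2 to GRCm38.p5 and quantified transcripts with StringTie, and the versions are not given in the sources used here. The deposited values are unnormalised gene counts and, separately, FPKM, which the authors scaled for transcript length and depth. How counts were derived from StringTie, and whether counting used strand, is not given in the sources used here, and 8 members (Lamp1, Npc1, Hexa, Galc, Sgsh, Arsa, Ppt1 and Grn) overlap exons of a gene on the opposite strand. The mice were grouped by their labels, and 0 columns were left unmapped. All 27 pairs of mice within groups differed by more than sampling noise.

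Levels are CPM computed from the deposited counts with TMM over all mice. Counts were fitted with edgeR 4.0.16 (R 4.3.3): TMM, filterByExpr with a minimum count of 10 and a minimum total count of 15, the quasi-likelihood F test and Benjamini-Hochberg adjustment over all genes tested. The 9 comparisons of 2 groups used their own mice, and the mean tau effect and the 3 interactions used a model of 6 group means. A gene passed at an adjusted p under 0.05. Standard errors are the log2 fold change divided by the square root of F, and 95% intervals use the t quantile of the fit's degrees of freedom. The fits were tested on simulated data. Alternatives were DESeq2 1.42.0, limma 3.58.1 on log2(FPKM + 1) and log2(FPKM + 0.1) with an FPKM minimum of 0.1, other scaling and filters, a replicate block, 1 fit of all mice, and each mouse left out in turn (84 fits). Same-numbered mice of 2 groups did not deviate together, so numbers were not used as pairs. Annotation is GENCODE M21. The values in every mouse are given for members that passed with a fold of at least 2 in some comparison and, up to 12 in all, for those with the smallest adjusted p in the mean tau effect. At most 4 genes are named from each pathway or marker list, by the smallest adjusted p. The members and lists were chosen with earlier results of these data known. Tables and figures were made with Python 3.11.15, pandas 2.3.3 and matplotlib 3.10.9.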

Additional observations from a re-analysis of the deposited data

Results flagged for a closer look

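A mouse far from the other mice of its group was looked for in the 93 groups of 4 mice that the 31 genes give in the 3 tau groups, by Dixon's test at its 95% critical value, and 6 were found, where chance alone gives about 1 in 20. Replicate 1 of PS/E3H was low in Lamp2, at 108.02 CPM against 145 to 150.2 CPM in the other PS/E3H mice, and in Tpp1, at 78.184 CPM against 92.9 to 94.8 CPM. The same mouse had the lowest microglial marker sum of its group, 627 CPM. Replicate 3 of PS/E4H was low in Lamp2, at 121.73 CPM against 145 to 149.8 CPM. Replicate 1 of PS/E4H was high in Grn, at 140.54 CPM against 96.7 to 103 CPM, and had the highest microglial sum of all mice, 1047 CPM, and it was low in Smpd1, at 121.08 CPM against 122.8 to 123 CPM, in a group that lay very close together. Replicate 4 of PS/E3H was high in Psap, at 2074.1 CPM against 1842 to 1859 CPM.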

How the results depend on the processing

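Of the 12 members given by mouse, those that passed in a tau comparison (4 in the APOE2 line, 12 each in the APOE3 and APOE4 lines and the mean effect) were followed through the alternatives, and no sign changed. Other settings lost 7 of 32 such calls in the APOE2 and 12 of 96 in the APOE3 line, and leaving out a mouse lost 14 of 28 and 15 of 84, with 0 lost in the APOE4 line and the mean effect. In the APOE4 line the count of 23 members stayed between 17 and 24 under the other tools, scalings and filters, and for the mean effect the count of 25 stayed between 23 and 25. In PS/E2H against E2H mice the count of 4 became 11 with DESeq2, 11 with all 21 mice in 1 fit, 2 with no filter on low counts and 1 with limma on unfiltered log2(FPKM + 1), and in PS/E3H against E3H mice the 16 became 0 with that limma fit. A fold change of at least 2 in addition left 2, 2, 5 and 2 members in the APOE2, APOE3 and APOE4 lines and the mean effect. DESeq2 gave 1 member in E2H against E3H, 1 in PS/E4H against PS/E2H and 1 in the APOE4 minus APOE2 interaction. DESeq2 without replicate 2 of E2H gave 2 and 0 members in the first and last of these. That fit and the overlap counts without single mice were chosen after seeing the data. With each mouse left out in turn there were 1 to 7 members in the APOE2 line, 6 to 21 in the APOE3 line, 17 to 23 in the APOE4 line, 23 to 26 for the mean effect and 0 to 0 in the APOE comparisons and interactions. With a replicate block, the count was 10 in the APOE2, 14 in the APOE3 and 17 in the APOE4 line and 25 for the mean effect. For these counts under other settings or without single mice, the shares of all genes that passed are not given here. A moved count is therefore not a result about the members alone. The numbers do not mark pairs: the correlations of same-numbered mice were between -0.12 and 0.095. The lowest count of a member was 441, so no member was near 0 counts, and the cause of the changes was not tested.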
